A study of Triticum aestivum with 24 samples.

Results

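FKBP70 is a wheat gene for a large peptidyl-prolyl isomerase of the kind that binds the immunosuppressant FK506. It was followed here at the feeding site of Hessian fly larvae in a resistant and a susceptible wheat line. The gene was chosen on its own signal in these arrays, as 1 of 771 genes that the array annotation pairs with a probe set, so its levels and changes are given below as a description with errors and without a test. Of the 61179 wheat probe sets 1 is annotated to it, under the gene identifier LOC543314, for which RefSeq lists FKBP70 as a synonym, and 0 other probe sets share its sequence cluster.

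Pieces of second leaf sheath came from 2 lines: Molly, which carries the resistance gene H13 and stops the larvae (an incompatible interaction), and Newton, which is susceptible (a compatible interaction). Seedlings at the stage of the second leaf received eggs, and sheaths of each line were taken at 6, 12 and 24 h after egg hatch. Uninfested sheaths of each line were taken at 12 h alone, so that plant age and time of day are matched in the comparison at 12 h and not in those at 6 and 24 h. Each of the 8 groups had 3 arrays, 24 in all, and the labels call the infested replicates biological while they only number the uninfested ones. Total RNA of the whole sheath piece was measured.

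Peptidyl-prolyl isomerases speed the turning of the peptide bond before proline, a slow step in protein folding. Plants have a group of large FK506-binding proteins in which isomerase domains are followed by tetratricopeptide repeats, and these repeats bind the chaperone HSP90. In Arabidopsis a member of the group, ROF1, binds HSP90 and takes part in tolerance of heat. The wheat genome is hexaploid, and the sources used here do not say whether the probes tell the copies of a gene on its 3 subgenomes apart, so the signal may sum several copies.

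Signals are MAS5 units on a linear scale, as deposited. Summed signal per array spanned 45085306 to 47715002 units and the median signal 78.3 to 101 units, and log2 signals of arrays in 1 group correlated at r = 0.951 to 0.974. Of the 32 probe sets of photosynthesis genes, 16 stayed at or below 85 units on every array and 13 had a mean signal above it. This limit is the highest value of the array's 8 tag control probe sets, which match no wheat transcript. The summed signal of the 32 photosynthesis probe sets lay between 88731 and 119269 units on every array. Of 17 probe sets of seed storage proteins, which leaf sheath should lack, 13 stayed at or below 85 on every array and 3 had a mean above it.

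The FKBP70 probe set was bright on every array. Its signal spanned 6481 to 15966 units, a 2.46-fold range, and exceeded that of 97.4% to 99.3% of wheat probe sets on every array, which does not rank transcripts by abundance, since probe sets differ in how well they bind. Its residual SD within groups was 0.187 on the log2 scale, against a median of 0.253 over the 36707 probe sets that were kept for fitting.

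Without larvae, Newton had the lower level. The 3 uninfested Newton arrays read 6673, 6481 and 6958 units, a mean of 6704 ± 240 (SD, n = 3). The 3 uninfested Molly arrays read 9274, 8920 and 9236 units, a mean of 9143 ± 194 (SD, n = 3). No Newton array reached a Molly array, which was the case in this direction for 14.9% of tested probe sets. The fitted difference, Newton minus Molly, was -0.45 on the log2 scale (SE 0.14), so uninfested Molly sheaths held 1.36-fold more signal than uninfested Newton sheaths at 12 h. Uninfested Newton had the lowest mean of the 8 groups, and 1 array of another group, Newton 12 h replicate 3 at 6849 units, lay among its arrays.

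At 6 h both lines stood above uninfested sheath, at overlapping levels. Infested Molly arrays read 12295, 13749 and 13210 units (mean 13085 ± 735) and infested Newton arrays 11993, 12197 and 13069 units (mean 12419 ± 571; SD, n = 3 each). The group means differ by 665 units, less than their combined SD of 931. All 3 infested arrays lay above all 3 uninfested arrays of the same line, in Molly as for 24.8% of tested probe sets and in Newton as for 19.8%. The log2 change against uninfested sheath was 0.52 (SE 0.14) or 1.43-fold in Molly and 0.89 (SE 0.14) or 1.85-fold in Newton. With each array centred on its own median the Molly change at 6 h was 0.26 (SE 0.14).

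At 12 h, the time matched by the uninfested sheaths, the lines parted. In Molly the level was lower than without larvae: the arrays read 7707, 7929 and 7486 units, a mean of 7707 ± 222 (SD, n = 3), and all lay below the lowest uninfested Molly array, as for 24.7% of tested probe sets. The log2 change was -0.25 (SE 0.14), or 1.19-fold lower. It was -0.40 (SE 0.14) with arrays centred on their medians and 0.18 (SE 0.17) with the 18S rRNA signal as a covariate, and the covariate turned its direction. The signal of that control was 5269 ± 1424 units in uninfested Molly and 1534 ± 160 in Molly at 12 h (SD, n = 3), and its part in the FKBP70 result was not tested. In Newton the 3 arrays spread widely at 12 h, at 10454, 12837 and 6849 units (mean 10047 ± 3015). Replicate 3 lay among the uninfested Newton arrays, so these groups overlap, whereas 20.1% of tested probe sets had all infested arrays on the upper side. The log2 change was 0.54 (SE 0.14) or 1.45-fold. SEs of the main fit rest on a spread pooled over all 8 groups. With the compared groups alone the SE was 0.20 for Newton at 12 h and 0.055 for Molly at 12 h.

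The value in Newton at 12 h depended on which array was left out. It was 0.79 (SE 0.10) without replicate 3 and 0.34 (SE 0.12) without replicate 2. Replicate 3 of this group also stood apart from its fellow replicates in other measurements. The summed signal of the 18 histone H2A and H2B probe sets, genes marked by cell division, was 228630 units there against 156741 and 114507 on the other replicates and 210403 to 236784 in uninfested Newton. Among infested arrays Molly 24 h replicates 2 and 3 also had high sums, 205422 and 237322 units. That Molly replicate 3 had the highest FKBP70 of its group, 12558 units. On Newton 12 h replicate 3 the 18S rRNA signal was 1134 units, within the range of other infested arrays (1074 to 4208) and below the uninfested Newton arrays (4832 to 8346). In bulk tissue fewer cells of a type and less RNA per cell cannot be told apart, and the part of the histone level in the FKBP70 value was not tested.

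At 24 h Newton had its highest level, and Molly lay just above its uninfested level. Infested Newton arrays read 15020, 15966 and 14786 units (mean 15258 ± 625; SD, n = 3), the 3 highest of all 24 arrays, as for 1.93% of tested probe sets. They exceeded uninfested Newton without overlap, as for 24.7% of tested probe sets, with a log2 change of 1.19 (SE 0.14) or 2.28-fold. Infested Molly arrays read 9335, 11238 and 12558 units (mean 11044 ± 1620). The lowest of them was just above the highest uninfested Molly array, at 9274 units, and 18.1% of tested probe sets lay wholly above in this comparison. The log2 change in Molly at 24 h was 0.26 (SE 0.14) or 1.20-fold, and 0.16 to 0.38 when single arrays were left out, 0.16 without Molly 24 h replicate 3. With arrays centred on their medians it was 0.12 (SE 0.14), less than its SE. All Newton arrays at 24 h exceeded all Molly arrays of that time, which was so for 21.6% of tested probe sets.

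**Figure D1:**
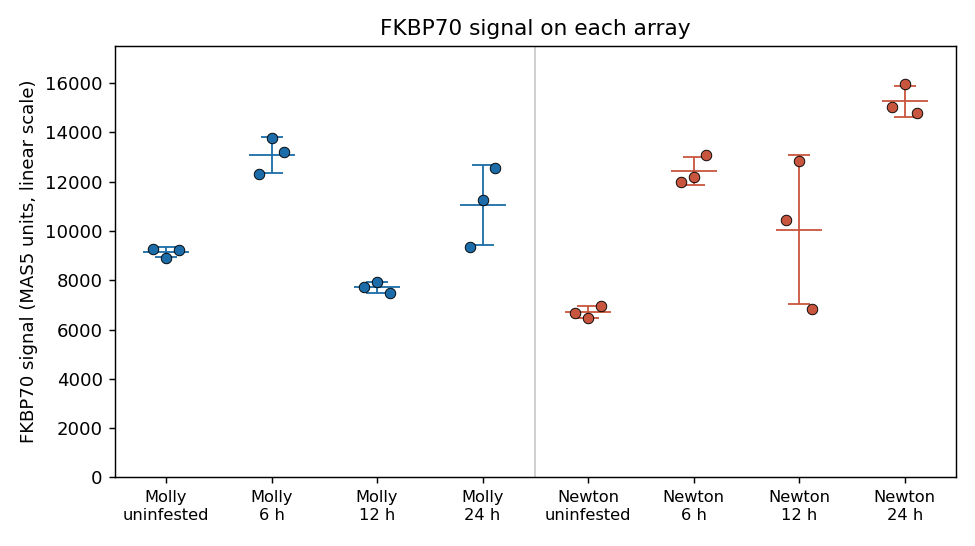
FKBP70 signal (linear MAS5 units) on each of the 24 arrays by line and time, with the group mean and SD as bars (n = 3 each). Molly at 12 h lies below uninfested Molly, Newton at 24 h holds the 3 highest arrays, and Newton at 12 h spans 6849 to 12837 units.

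Ordered by mean, the 8 groups ran from uninfested Newton through Molly at 12 h, uninfested Molly, Newton at 12 h, Molly at 24 h, Newton at 6 h and Molly at 6 h to Newton at 24 h. Neighbours did not overlap, and differed by more than their combined SD, in 3 of these 7 steps: from uninfested Newton to Molly at 12 h (1003 units, combined SD 327), from there to uninfested Molly (1436 units, combined SD 295), and from Molly at 6 h to Newton at 24 h (2173 units, combined SD 965). The 4 steps between overlapped and were smaller than their combined SD.

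Within the infested sheaths the mean at 12 h was below those at 6 and 24 h in both lines. The highest infested mean came at 6 h in Molly and at 24 h in Newton. Newton arrays at 12 h overlapped those at 6 h. In Molly the log2 difference was -0.76 (SE 0.14) from 6 to 12 h and 0.51 (SE 0.14) from 12 to 24 h. In Newton it was -0.35 (SE 0.14) from 6 to 12 h, or -0.10 (SE 0.10) without Newton 12 h replicate 3 and -0.55 without replicate 2, and 0.65 (SE 0.14) from 12 to 24 h, or 0.40 without that array. All 3 Molly arrays at 12 h lay below all 9 Molly arrays of the other times and of uninfested sheath, a dip that 3.41% of tested probe sets had. The direction in each line and time was shared in all 6 comparisons with uninfested sheath by 1096 of 36707 probe sets (2.99%), FKBP70 included. In the 5 comparisons where FKBP70 arrays did not overlap, 40 probe sets (0.109%), FKBP70 included, had no overlap in the same directions.

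The log2 change was higher in Newton than in Molly at every time. The difference of log2 changes, Newton minus Molly, was 0.37 (SE 0.20) at 6 h, 0.78 (SE 0.20) at 12 h and 0.92 (SE 0.20) at 24 h. At 6 h it was 0.57 (SE 0.19) with arrays centred on their medians and 0.24 (SE 0.22) after quantile normalization. At 12 h it was 1.04 without Newton 12 h replicate 3 and 0.58 without replicate 2. At 6 h the lines reached overlapping levels from different uninfested levels, whereas at 24 h the levels themselves were apart. With 18S rRNA signal as a covariate the log2 changes at 6, 12 and 24 h were 0.87, 0.18 and 0.50 in Molly and 1.39, 0.91 and 1.70 in Newton. The 3 changes of a line share its uninfested arrays, so they are not independent of each other.

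Set among all tested probe sets, the FKBP70 changes in Newton at 6 and 24 h were near the upper end. At 24 h in Newton 96.0% of tested probe sets had a lower log2 change, at 6 h 95.6% and at 12 h 87.5%. In Molly the shares were 78.9% at 6 h, 31.4% at 12 h and 72.9% at 24 h. The median log2 change over all tested probe sets lay between -0.02 and 0.07 in these comparisons.

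**Figure D2:**
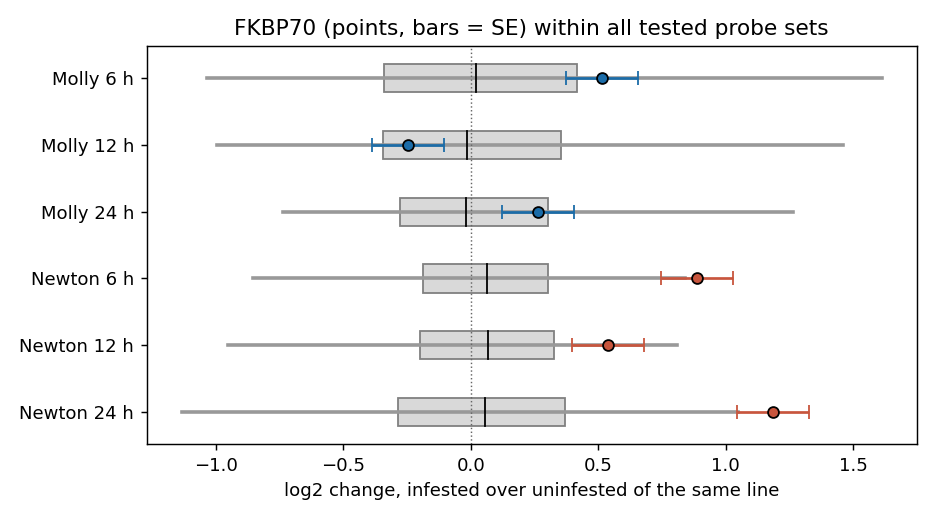
Log2 change of FKBP70 against uninfested sheath of its line (points, horizontal bars show the SE) over the distribution of all 36707 tested probe sets (box, percentiles 25 to 75; line in the box, median; grey line, percentiles 5 to 95). The Newton points at 6 and 24 h lie beyond the end of the grey line, and the Molly point at 12 h lies left of 0.

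How far each infested array had moved from uninfested sheath as a whole was set beside its FKBP70 level, a measure added after the values had been seen. For each array its deviation from the uninfested mean of its line was projected on the mean deviation of the line's other infested times, over the 36706 tested probe sets other than FKBP70. A coordinate of 0 is the uninfested mean and 1 the mean of those other times. The axis thus differs between times, so coordinates of different times are not on the same scale. In Newton the array with the lowest coordinate, replicate 3 at 12 h with 0.54, also had the lowest FKBP70 log2 value over uninfested, 0.03. Its fellow replicates had coordinates of 0.71 and 0.95 and FKBP70 log2 values of 0.64 and 0.94. The 3 Newton arrays at 6 h had coordinates of 0.77, 0.75 and 0.95 and FKBP70 values of 0.84, 0.86 and 0.96. At 24 h the coordinates were 0.95, 1.14 and 1.15 and the FKBP70 values 1.16, 1.25 and 1.14. The Newton array with the highest coordinate at 24 h thus had the lowest FKBP70 of that group.

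In Molly, too, the FKBP70 level did not order the arrays at 24 h as the coordinate did. The 3 arrays at 12 h had coordinates of 0.86 to 0.96, below the 1.12 to 1.16 of the 6 h arrays on their own axis. FKBP70 was at -0.21 to -0.29 over uninfested at 12 h and at 0.43 to 0.59 at 6 h. Among the 3 arrays at 24 h the coordinates were 0.89, 0.70 and 0.55 and the FKBP70 values 0.03, 0.30 and 0.46. The array furthest from uninfested sheath thus had the lowest FKBP70 there, as was so in Newton at 24 h.

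**Figure D3:**
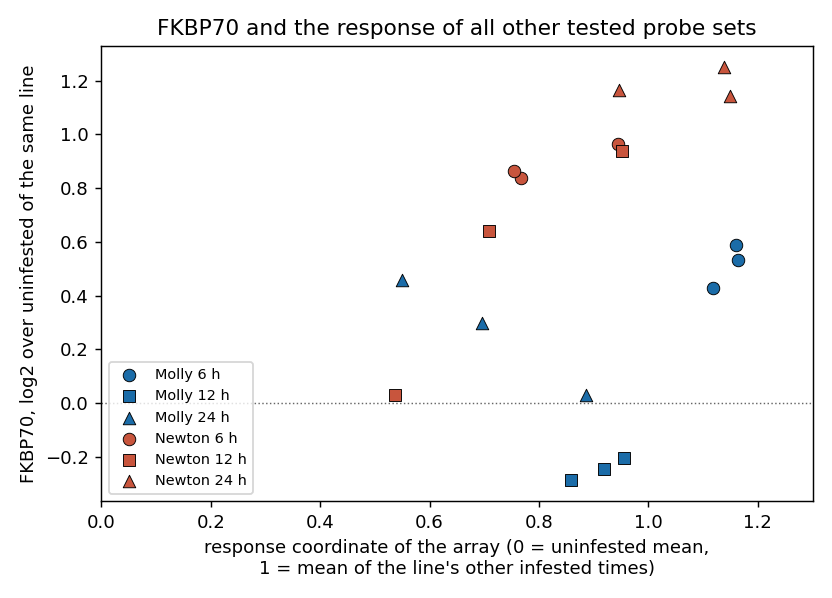
FKBP70 log2 signal over the uninfested geometric mean of its line against the response coordinate of the same array (no unit), for 18 infested arrays. Newton 12 h replicate 3 lies at 0.54 and 0.03, and Molly arrays at 12 h lie below 0 at coordinates of 0.86 to 0.96. Coordinates of different times are not on the same scale, so only arrays of the same line and time can be ordered along it.

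The probe sets most like FKBP70 were found by Pearson's r on log2 signal over the 24 arrays, as a description of arrays that share their groups and scaling. Of 36706 other tested probe sets 28 had r of at least 0.9 and 252 of at least 0.8, 0 of them with a gene name, and the median r was 0.05. The 2 highest, with r = 0.96 and r = 0.94, belong to sequence cluster 2934, which the annotation pairs with no gene. The closer of these probe sets followed FKBP70 also within groups, with r = 0.93 for deviations from the group means. The FKBP70 deviations were largest in Newton at 12 h (0.10, 0.40 and -0.51) and Molly at 24 h (-0.23, 0.04 and 0.20). Each r within groups, here and below, therefore rests mainly on these arrays. The level of this unnamed probe set was 650 ± 66.9 units in uninfested Molly and 510 ± 35.5 in Molly at 12 h, the same order as FKBP70. In Newton it was 400.5 ± 14.0 without larvae, 1706 ± 26.1 at 6 h and 2048 ± 389 at 24 h (SD, n = 3 each). Its folds over uninfested Newton, 4.26 at 6 h and 5.05 at 24 h, were above the 1.85 and 2.28 of FKBP70, and its Newton 12 h replicate 3, at 577 units, was again the lowest of the 3.

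Named genes were few, 133 of the 36706 probe sets, so their absence at r of at least 0.8 is no result about them. At r of at least 0.7 there were 900 probe sets, 2 of them named. Among the 133 tested probe sets with a telling name, from 77 genes, the closest was Eif4B, a translation initiation factor that helps unwind the start of mRNAs, with r = 0.77 over arrays, 0.84 over the 8 group means and 0.42 for deviations within groups. Its signal moved over a narrower range, with 5035 ± 191 units in Molly at 12 h as its lowest group and 6835 ± 378 in Newton at 24 h as its highest. The alpha-tubulin gene TUBA followed with r = 0.76, while its other probe set had r = -0.13. CAT1, a catalase, which breaks down hydrogen peroxide, had r = 0.65, and XTH, which cuts and rejoins xyloglucan in the cell wall, had r = 0.60. GSTZ1, a glutathione transferase, had r = 0.58 in 1 probe set and down to 0.03 among its 3. With arrays centred on their medians the value of Eif4B was 0.63 and that of TUBA 0.68.

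The most opposite named gene was Hmgb3, a high mobility group protein of chromatin, with r = -0.85 over arrays and -0.84 in its other probe set. Its signal was 12760 ± 213 units in uninfested Molly and 6122 ± 104 in Molly at 6 h, where FKBP70 was high, and 9266 ± 257 at 12 h, where FKBP70 was low. In Newton it was 4856 ± 229 units at 24 h, and 12751 units on replicate 3 at 12 h, where FKBP70 was at 6849. The glyoxalase gene lgul had r = -0.77, with -0.71 in its other probe set, and the beta-glucosidase gene TaGlu1a had r = -0.69. The summed histone signal, which marks dividing cells, correlated with FKBP70 at r = -0.60 over arrays and -0.41 within groups, and the photosynthesis sum at -0.06 and -0.42. For the 18S rRNA signal r was -0.41 over arrays and 0.64 within groups, so its sign differed between these measures.

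**Figure D4:**
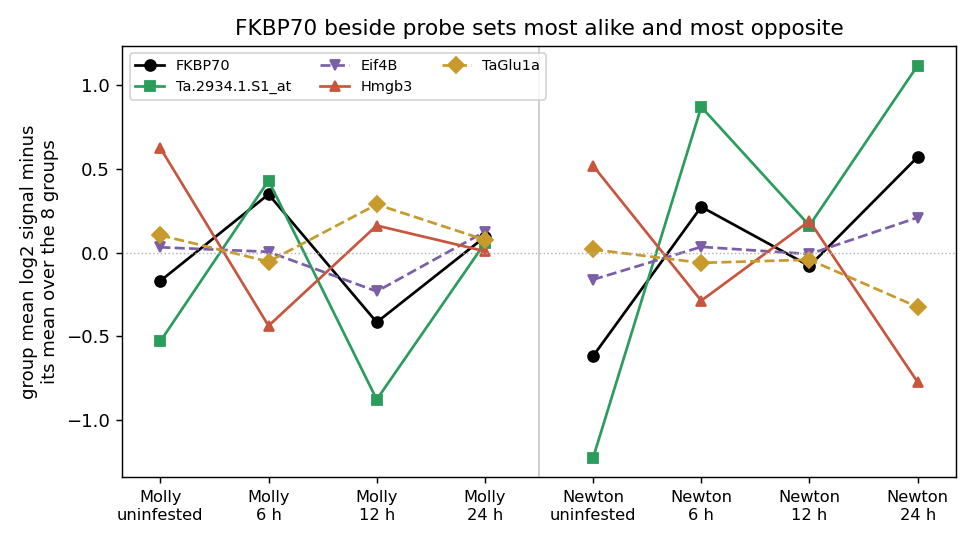
Group mean log2 signal minus its mean over the 8 groups for FKBP70, the closer unnamed probe set of cluster 2934, Eif4B, Hmgb3 and TaGlu1a (n = 3 arrays a group). The unnamed probe set has the shape of FKBP70 with larger steps, and Hmgb3 is lowest where FKBP70 is highest, in Newton at 24 h.

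Of other protein folding genes the annotation names only hsp16.9A, a small heat shock protein that keeps unfolding proteins from clumping. Its signal was dim and below the filter on low values, so it had no place in the main fit. It was at most 36.3 units on the 6 uninfested arrays and at most 20.0 in Molly at 12 h, all below the highest tag control signal of 85. It reached 63.2, 169 and 52.5 units in Molly at 6 h, 95.6, 42.8 and 247 in Newton at 6 h, and 187, 257 and 57.6 in Newton at 24 h. In Molly at 24 h it was at 23.3 or less. Fitted without the filter, it rose in Newton at 24 h (limma, adjusted p = 0.022), where 9.4% of all 61179 wheat probe sets rose. That p-value is for the fitted change from the dim uninfested values, not for a rise above the tag controls. The group geometric mean was 1.65-fold the highest tag control signal, and replicate 3, at 57.6 units, lay below that signal. The uninfested level of hsp16.9A is not told from background, so that its full change is not known. It did not pass the test in the other 5 comparisons. At 6 h in Newton its geometric mean was 1.18-fold the highest tag control signal (adjusted p of the fitted change 0.099). In Molly at 6 h it was 82.5 units, within the range of the controls (adjusted p = 0.059).

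A list of dehydrin and other late embryogenesis genes, whose proteins protect cells that lose water, gave a comparison with other stress genes. It held 10 probe sets of 5 genes, and 4 passed the filter: 2 of Rab15, a dehydrin that responds to abscisic acid, and 1 each of EMH2 and EM, genes of Em proteins. In Molly both Rab15 probe sets rose at 6 h and at 12 h and 0 members fell (limma, adjusted p under 0.05), where 18.3% and 16.4% of all tested probe sets rose and 19.5% and 17.7% fell. The brighter Rab15 probe set went from 168 ± 50.3 units to 547 ± 112 at 6 h (log2 change 1.73, SE 0.46, adjusted p = 0.005) and to 571 ± 84.9 at 12 h (1.80, SE 0.46, adjusted p = 0.0042; SD, n = 3). Thus in the main fit at 12 h in Molly, FKBP70 was below its uninfested level and this dehydrin was above its own. With 18S rRNA signal as a covariate the FKBP70 change there was 0.18 and limma called 0 of the 4 members.

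At 24 h in Molly limma called 0 members in either direction (1 at an unadjusted p under 0.05), against 11.9% of all tested probe sets that rose and 12.1% that fell. The brighter Rab15 probe set had a log2 change of 1.05 there (adjusted p = 0.11). In Newton limma called 0 members at 6 h (1 at an unadjusted p under 0.05; background 8.64% up and 6.53% down), 1 that rose at 12 h (10.8% up and 7.76% down) and 2 that rose at 24 h (16.6% up and 13.8% down). At 24 h in Newton the brighter Rab15 probe set rose from 159 ± 50.2 to 496 ± 147 units (log2 change 1.64, SE 0.46, adjusted p = 0.0098). The dimmer one had an uninfested Newton level, a geometric mean of 84.9 units, no higher than the highest tag control signal. It rose at least 4.07-fold at 24 h (limma, adjusted p = 0.00066) and at least 2.87-fold at 12 h (adjusted p = 0.011). These p-values are for the fitted changes from the uninfested values, not for the bounds. That call at 12 h was lost without Newton 12 h replicate 2, which held 532 units against 183 and 149. EMH2 and EM were called in 0 of 6 comparisons. The group geometric means of EMH2 spanned 60.3 to 136 units and those of EM 41.2 to 87.0 units, near or within the range of the tag controls, so no fold is given for them. The median fitted log2 change of the 4 members rests in part on these dim levels. In Molly it was 0.81, 0.76 and 0.57 at 6, 12 and 24 h, and in Newton -0.10, 0.59 and 0.81. Over all tested probe sets the medians were 0.02, -0.01 and -0.02 in Molly and 0.06, 0.07 and 0.05 in Newton. With 18S rRNA signal as a covariate limma called 0 of the 4 members in Molly at 12 h and in Newton at 12 and 24 h. For the differences of log2 changes between the lines limma called 0 of the 4 probe sets at any time (adjusted p of 0.13 to 0.88; 1, 0 and 1 at an unadjusted p under 0.05 at 6, 12 and 24 h), where 23.4%, 25.1% and 17.3% of all tested probe sets were called.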

How the data were processed

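Each deposited value is the linear intensity of a probe set. The authors computed it with MAS5, per the submitters' processing notes, while its version, its settings and a genome build were not given in the sources used here. After 2% was trimmed at each end, array means were 500.1 units, so the scaling was kept as deposited, and 0 pairs of arrays were identical. The table holds 61290 probe sets including 111 controls, which were dropped along with the 40% of the others that had the lowest mean log2 signal (limit 44.8 units as a geometric mean). The limma package (3.58.1, R 4.3.3) fitted log2 signals of all 24 arrays with a mean for each group, a variance prior following intensity, two-sided tests and Benjamini-Hochberg adjustment within each comparison over 36707 probe sets. The fit was tested on simulated data. Nothing used here says that the uninfested replicates came from separate plants. Their part of the pooled spread behind the p-values may thus be technical alone, and the number of arrays limits the precision.

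The annotation pairs 1273 probe sets with 1 gene, 0 with several and 59906 with none; 770 of its 771 genes are in the supplied RefSeq table. FKBP70, the lists and the naming rule were chosen with earlier results of these data known. That rule took the probe sets of FKBP70, members of the folding and stress lists, the 5 named genes with the highest and the 3 with the lowest r, and the 2 unnamed probe sets with the highest r. Folds of named list genes from a group within the range of the tag controls are given as at least the ratio to their highest signal, or not at all. Alternatives were other scalings, offsets, filters, covariates and blocks, and each array left out in turn. Replicate numbers did not pair the arrays: deviations of same-numbered arrays from their group means correlated at a median of -0.01, with 3 of 84 pairs over 0.1. Genomic positions and sequences were not used here.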

Additional observations from a re-analysis of the deposited data

Results flagged for a closer look

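In the main fit the FKBP70 response at 12 h differed in direction between the lines. Every infested Molly array lay below the geometric mean of uninfested Molly and every infested Newton array above that of uninfested Newton. The difference of log2 changes, Newton minus Molly, was 0.784. Newton replicate 3 was only 0.03 above and lay among the uninfested Newton arrays. With 18S rRNA signal as a covariate both changes were positive, 0.18 in Molly and 0.91 in Newton. The share of all tested probe sets with such a split was not counted. The difference was not tested, because the gene was chosen on these values.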

How the results depend on the processing

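Each of 14 FKBP70 values was recomputed under 9 other settings. All 14 kept their direction and moved by less than the residual SD of 0.187 under quantile normalization, log2(value + 16), both other filters, no variance trend, the replicate block and fits of the compared groups alone. Fits of the compared groups alone did change the SE from the pooled 0.14. It became 0.20 for Newton at 12 h, 0.21 for Newton from 6 to 12 h and 0.06 for Newton at 24 h. The replicate block gave 0.89 for Newton at 6 h and -0.25 for Molly at 12 h, as without it, and changed no call of the stress list; 3 of 24 arrays correlated best with their own number. Centring arrays on their medians gave 0.26 for Molly at 6 h, -0.40 at 12 h and 0.12 at 24 h, and 0.57 for the difference between lines at 6 h, which quantile normalization put at 0.24. With 18S rRNA signal as a covariate the change in Molly was 0.87 at 6 h, 0.18 at 12 h (reversed) and 0.50 at 24 h, in Newton 1.39, 0.91 and 1.70, the difference between lines at 24 h 1.20, and the step in Molly from 12 to 24 h 0.32; 18S signal was lower on infested arrays, so covariate and infestation overlap. Under that covariate the stress list had 0 calls in Molly at 12 h and in Newton at 12 and 24 h; with the compared groups alone it had 0 in Newton at 12 h. Leaving out single arrays changed no FKBP70 direction. The ranges for Newton at 12 h were 0.34 to 0.79 (difference between lines 0.58 to 1.04; from 6 to 12 h -0.55 to -0.10; from 12 to 24 h 0.40 to 0.85), and stress list calls ranged from 0 to 2 in Newton at 12 h and 0 to 1 in Molly at 24 h. The folding list had no tested member beside FKBP70, so its count could not be recomputed.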
